A study of Mus musculus with 21 samples.

Results

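The leukotriene and prostaglandin genes were followed in 3 populations of mouse kidney macrophages, in Sham kidneys and in kidneys with renal artery stenosis (RAS). The 10 genes were selected on their symbols, from 34236 gene names in the count table: Alox5, Alox5ap, Ltc4s, Lta4h and Ltb4r1 of the leukotriene branch, and Ptgs1, Ptgs2, Ptges, Hpgds and Ptger4 of the prostaglandin branch. Each stood on 1 line of the table, and all 10 passed the filter on low counts over the 21 libraries. No threshold on a measured value entered the selection, but the list was drawn up with earlier results of the same counts known. The levels are therefore given as a description, and each test states the size of a difference against the spread between libraries.

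Both branches start from arachidonic acid, a fatty acid released from membrane lipids. 5-Lipoxygenase, with its activating protein, turns it into leukotriene A4, which becomes either the neutrophil attractant leukotriene B4 or the cysteinyl leukotrienes. The cyclooxygenases turn it into prostaglandin H2, from which separate synthases make prostaglandin E2, prostaglandin D2, prostacyclin and thromboxane. In the kidney, prostaglandins are known for their effects on blood flow, renin release and salt handling.

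All animals were male C57BL/6J mice, 24 weeks old by the labels, with no transgene or drug named. In RAS a cuff narrowed the right renal artery, and in Sham the artery was exposed without a cuff, and by the methods of the study the transcriptomes were taken after 4 weeks. F4/80+ CD64+ cells were sorted from digested kidneys after cells with lineage markers of T, B, NK and red cells and granulocytes had been gated out and the labels give a sort time of 5 hours. CD11chi macrophages were high for CD11b and CD11c (3 Sham and 4 RAS libraries), CD11clo macrophages were high for CD11b and low to negative for CD11c (3 Sham and 4 RAS), and kidney-resident macrophages (KRM) were intermediate for both (4 Sham and 3 RAS). The populations are sort gates and not single cell types. Because the RNA is from bulk samples, fewer cells of a type and less RNA per cell cannot be told apart. The labels do not say whether libraries of a group came from separate animals, so p-values measure the spread between these libraries, which may be in part technical. Levels are CPM, the counts relative to the library total, after scaling by the trimmed mean of M values (TMM). Total counts ran from 6891137 to 18592376 per library.

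The sort markers were present in every group: the 9 macrophage markers, among them Adgre1 (F4/80) and Fcgr1 (CD64), summed to between 1782 and 9179 CPM over the 21 libraries. In CD11chi Sham 3 the sum was 1782, against 5322 and 6593 in CD11chi Sham 1 and 2. Some libraries stood apart. The deposited normalized column of KRM RAS 1 did not correspond to its count column (Spearman's rho 0.688, against at least 0.908 for the other 20 libraries), and its counts lay nearer to KRM Sham than to KRM RAS 2 and 3 (root mean square log2 distance 1.03 against 1.62). Whether a column of this library is mislabelled could not be settled, so each KRM RAS value holds only as far as its label does. Its 7 T and NK cell markers summed to 342 CPM and its 8 mast cell and basophil markers to 83.4, above KRM Sham (3.09 to 4.34 and 1.32 to 7.83), and KRM RAS 2 and 3 were above it too (44.2 and 40.6, and 136 and 109.7). CD11chi Sham 1 lay nearest to CD11chi RAS (1.15, against 1.38 to its own group), CD11chi Sham 2 to KRM Sham (1.02 against 1.37) and CD11chi Sham 3 to KRM RAS (1.45 against 1.95). CD11chi RAS 1 and CD11clo RAS 1 lay nearest to the Sham group of their population. CD11clo RAS 3 differed in its markers, with the fewest monocyte and the most platelet marker counts of CD11clo (2819.5 and 308 CPM). Tubule markers, 9 genes, summed to 4724 and 3641 CPM in KRM RAS 2 and 3, 7245 in CD11chi Sham 3, 2249 in CD11clo Sham 3 and 1126 in KRM Sham 3, against at most 624 in the other 16. CD11chi RAS 3 and 4 were far closer to each other than to the rest of their group (chi-square per degree of freedom 5.13, against 94.3 to 112), and so were KRM RAS 2 and 3 (10.1, against 107 and 136). Both values are above sampling noise, so these libraries were kept apart, and results were also computed with each pair summed to 1 sample. Calls of members that changed on leaving out KRM RAS 1, CD11chi Sham 3 or CD11clo RAS 3 are given as such.

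In Sham kidneys the leukotriene genes were highest in CD11clo macrophages by their means, and Alox5 and Ltb4r1 were lower in KRM than in both other populations. Alox5 (mouse build GRCm38, chr6:116410077-116461178, minus strand) encodes 5-lipoxygenase, the first enzyme of the branch. Its levels were 194, 219 and 172 CPM in CD11clo Sham, 74.2, 49.2 and 18.1 in CD11chi Sham and 4.45, 2.43, 4.54 and 7.74 in KRM Sham. The 3 groups did not overlap, with CD11clo the highest and KRM the lowest. By edgeR's quasi-likelihood test with Benjamini-Hochberg adjustment over all genes, the log2 fold change of KRM over CD11clo was -5.37 ± 0.33 (SE, adjusted p = 1.04e-05), that of KRM over CD11chi was -3.33 ± 0.53 (adjusted p = 0.0173), and that of CD11chi over CD11clo was -2.01 ± 0.46 (adjusted p = 0.0974). Once replicate numbers entered the fit as a block, the KRM to CD11chi difference missed the threshold (adjusted p = 0.0772) and the CD11chi to CD11clo difference passed it (adjusted p = 0.029). The call of KRM against CD11chi was also lost on leaving out CD11chi Sham 1 or KRM Sham 1, 2 or 3 (adjusted p between 0.0545 and 0.172 over all member calls lost in this comparison). Without CD11chi Sham 3, the library with the most tubule marker RNA, CD11chi differed from CD11clo (adjusted p = 0.0185). Without all Sham libraries numbered 3, Alox5ap (adjusted p = 0.00966) and Ptger4 (adjusted p = 0.00922) differed between CD11chi and CD11clo as well, where 1897 of all genes did in place of 184.

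Ltb4r1 (chr14:55765962-55768494, plus strand), the high-affinity receptor for leukotriene B4, had the same order of group means. It was at 122, 98.9 and 64.2 CPM in CD11clo Sham, 101, 64.2 and 16.1 in CD11chi Sham and 5.66, 4.23, 2.94 and 5.33 in KRM Sham. Every KRM library lay below every library of the other populations, while CD11clo and CD11chi overlapped. The log2 fold change of KRM was -4.44 ± 0.30 against CD11clo (adjusted p = 1.82e-05) and -3.77 ± 0.56 against CD11chi (adjusted p = 0.0145), and the second call was lost on leaving out KRM Sham 1, 2 or 4. CD11chi and CD11clo were not distinguished (log2 fold change -0.62 ± 0.59, adjusted p = 0.614).

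Alox5 and Ltb4r1 were the leukotriene genes with the largest log2 fold changes between KRM and CD11clo in Sham. Their promoters are shown from RefSeq (GRCm38.p6), from 250 bases before to 50 bases after the start site, 5′ to 3′ on the gene's strand. Capitals mark a GC box, searched as GGGCGG on both strands. Of 32851 RefSeq promoters of this length, 35.7% hold one. The Alox5 promoter lies at chr6:116461129-116461428 and that of Ltb4r1 at chr14:55765712-55766011. Each holds 1 GC box and none of the 5 other motifs searched on both strands. These were a TATA box, spelled TATAAA and found in 13.6% of all promoters, a half-site of the cyclic AMP response element, spelled TGACG and found in 20.8%, and an AP-1 site, spelled TGANTCA and found in 7.81%. The others were an E-box, spelled CACGTG and found in 7.15%, and a CCAAT box, found under that spelling in 37.4%.
Alox5: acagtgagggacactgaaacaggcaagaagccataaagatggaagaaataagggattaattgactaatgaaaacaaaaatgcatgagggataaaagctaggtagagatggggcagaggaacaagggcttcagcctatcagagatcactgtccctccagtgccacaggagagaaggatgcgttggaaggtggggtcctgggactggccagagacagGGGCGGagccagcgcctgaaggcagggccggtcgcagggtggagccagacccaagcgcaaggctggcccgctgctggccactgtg
Ltb4r1: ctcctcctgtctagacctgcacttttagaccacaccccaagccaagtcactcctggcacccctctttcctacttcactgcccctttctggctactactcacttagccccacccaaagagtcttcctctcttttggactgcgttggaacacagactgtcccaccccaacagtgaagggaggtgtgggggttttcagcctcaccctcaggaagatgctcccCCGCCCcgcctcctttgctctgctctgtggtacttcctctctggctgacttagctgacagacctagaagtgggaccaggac

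The other leukotriene genes differed less. Alox5ap (chr5:149264767-149288153, plus strand) encodes the 5-lipoxygenase activating protein, which presents arachidonic acid to the enzyme. It had 630.4, 526 and 346 CPM in CD11clo Sham, 284, 286 and 98.1 in CD11chi Sham and 270.5, 204, 176 and 202 in KRM Sham, so CD11clo lay above both other groups, which overlapped. Lta4h (chr10:93453411-93484875, plus strand), the hydrolase that makes leukotriene B4, had 146, 149.6 and 82.2 CPM in CD11clo, 114, 79.7 and 65.1 in CD11chi and 50.1, 50.5, 44.7 and 56.1 in KRM. KRM lay below both. Ltc4s (chr11:50236461-50238616, minus strand), the synthase of the cysteinyl leukotriene C4, had 20.8, 16.6 and 58.4 CPM in CD11clo, 4.20, 9.77 and 10.7 in CD11chi and 4.69, 3.60, 2.19 and 2.20 in KRM. CD11clo lay above both other groups, and CD11chi Sham 1 lay within the KRM range. Against CD11clo the log2 fold change of KRM was -1.26 ± 0.23 for Alox5ap (adjusted p = 0.00316), -1.35 ± 0.22 for Lta4h (adjusted p = 0.00157) and -3.35 ± 0.49 for Ltc4s (adjusted p = 9.55e-04). Against CD11chi it was -0.10 ± 0.35, -0.83 ± 0.20 and -1.44 ± 0.45, with adjusted p of 0.873, 0.059 and 0.114, and Lta4h passed the test without CD11chi Sham 3 (adjusted p = 0.00897). The counting was not stated to use strand. Antisense genes overlap Alox5ap (Gm19719) and Ltc4s (Gm26542), so reads of these pairs could not be told apart.

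**Figure D1:**
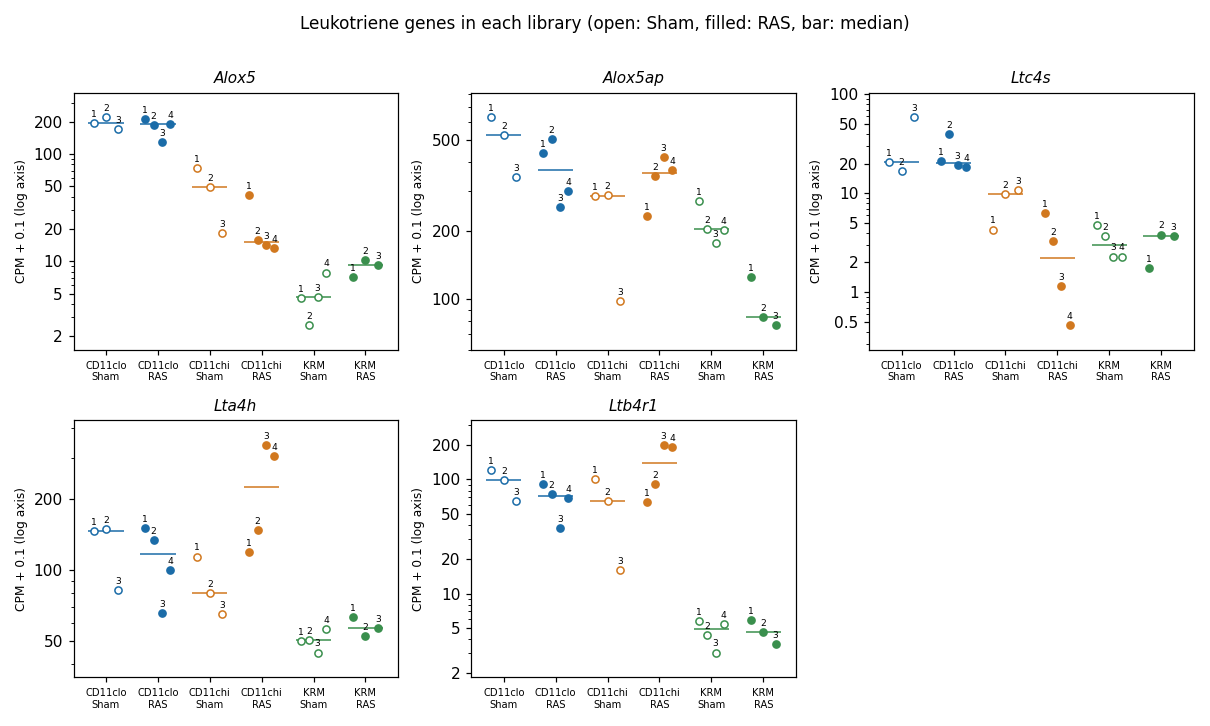
CPM of the 5 leukotriene genes in each of the 21 libraries, on a log axis after adding 0.1, by population and kidney. Each point is a library labelled with its replicate number, open for Sham and filled for RAS, and the bar is the group median. KRM libraries lie between 2.43 and 10.1 CPM for Alox5, below every library of the other populations.

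Marker lists of neutrophils, monocytes and eosinophils were highest in CD11clo Sham, as the leukotriene genes were by their means. Those of other leukocytes were not. The 6 B and plasma cell markers summed to 411 to 516 CPM in KRM Sham, 193 to 813 in CD11chi Sham and 12.7 to 46.8 in CD11clo Sham. The 7 dendritic cell markers summed to 346 to 1742 CPM in CD11chi Sham, 51.3 to 149 in CD11clo Sham and 84.9 to 109 in KRM Sham. The lists of T and NK cells and of mast cells and basophils had their highest median in CD11chi Sham. The 9 neutrophil markers summed to between 785 and 2241 CPM in CD11clo Sham, 27.9 and 136 in CD11chi Sham and 5.86 and 8.78 in KRM Sham. Of the 9, Ly6g, Camp and Ngp were at 0 in CD11chi Sham and Ly6g and Camp in KRM Sham. Ly6g was at most 0.414 CPM in CD11clo Sham, where none of the 9 was at 0 in every library. The 7 monocyte markers ran from 4073 to 13258 CPM in CD11clo Sham, 387 to 2261 in CD11chi Sham and 561 to 853 in KRM Sham. The 3 eosinophil markers found, of a list of 4, summed to between 136 and 315 CPM in CD11clo Sham, 1.51 and 18.2 in CD11chi Sham and 1.46 and 2.94 in KRM Sham, with Epx at 0 in every Sham library. The part of these cells in the differences was not tested.

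Of the prostaglandin genes, Ptgs1 and Hpgds were higher in KRM Sham than in both other populations, and Ptgs2 was lower. Ptges and Ptger4 overlapped between KRM and CD11chi. Ptgs1 (chr2:36230426-36252272, plus strand) encodes cyclooxygenase 1, the constitutive enzyme. It was at 144, 145, 135 and 139.6 CPM in KRM Sham, 44.4, 85.0 and 32.6 in CD11chi Sham and 45.3, 51.8 and 52.6 in CD11clo Sham, and every KRM library lay above the rest. Hpgds (chr6:65117293-65144908, minus strand), the haematopoietic synthase of prostaglandin D2, had 161, 176, 127 and 144 CPM in KRM Sham, 50.3, 73.5 and 34.5 in CD11chi Sham and 7.13, 5.80 and 5.20 in CD11clo Sham. Its 3 groups did not overlap, with KRM highest and CD11clo lowest. The log2 fold change of KRM over CD11clo was 4.62 ± 0.19 for Hpgds (adjusted p = 1.98e-06) and 1.48 ± 0.10 for Ptgs1 (adjusted p = 1.99e-05). Over CD11chi it was 1.48 ± 0.25 (adjusted p = 0.0218) and 1.35 ± 0.30 (adjusted p = 0.0492), and both calls were lost with the replicate block (adjusted p = 0.074 and 0.132) and on leaving out CD11chi Sham 1 or any 1 of the KRM Sham libraries. Hpgds was also higher in CD11chi than in CD11clo (log2 fold change 3.19 ± 0.32, adjusted p = 0.0208), a call lost on leaving out any 1 library but CD11chi Sham 3 (adjusted p up to 0.18).

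Ptgs2 (chr1:150100031-150108227, plus strand), the inducible cyclooxygenase 2, ran the other way from Ptgs1. It was at 345, 218 and 209.6 CPM in CD11clo Sham, 48.5, 77.8 and 28.7 in CD11chi Sham and 3.37, 8.04, 5.28 and 13.2 in KRM Sham. No group overlapped another, and KRM had the lowest levels. The log2 fold change of KRM was -5.15 ± 0.43 against CD11clo (adjusted p = 5.01e-05) and -2.83 ± 0.50 against CD11chi (adjusted p = 0.0235, lost on leaving out CD11chi Sham 1 or KRM Sham 1, 2 or 3). That of CD11chi against CD11clo was -2.26 ± 0.39 (adjusted p = 0.0549, 0.0207 with the replicate block and 0.0272 without CD11chi Sham 3).

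Ptges (chr2:30889471-30929863, minus strand), the inducible synthase of prostaglandin E2, was low in all Sham groups. It had 5.58, 8.23 and 4.31 CPM in CD11clo, 0.600, 2.76 and 10.8 in CD11chi and 0.481, 0, 0.0997 and 0.627 in KRM, where the counts of the 4 libraries were 4, 0, 2 and 6. KRM lay below CD11clo (log2 fold change -4.39 ± 0.84, adjusted p = 0.00389) and overlapped CD11chi, a comparison in which Ptges did not pass the filter on low counts. Against CD11clo Ptges passed the filter only through the CD11clo libraries, where it was higher, so that difference is a description. CD11chi Sham 3, the highest of these libraries, is the one with the most tubule marker RNA. Ptger4 (chr15:5206661-5244187, minus strand), the EP4 receptor of prostaglandin E2, was expressed by all 3 populations, at 153, 172, 162 and 173 CPM in KRM, 201, 201 and 98.3 in CD11chi and 69.4, 101 and 141 in CD11clo. KRM lay above CD11clo (log2 fold change 0.65 ± 0.20, adjusted p = 0.0339), a call lost on leaving out any 1 library but CD11clo Sham 3 (adjusted p between 0.051 and 0.0812). Ptger4 overlaps Ttc33 on the other strand, and Ptges holds the pseudogene Gm13400. Hpgds overlaps the pseudogene Gm17147 and Ptgs1 overlaps Gm43621, both on the other strand. The counts of these members are uncertain to that extent.

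Of the members tested in Sham kidneys, 10 of 10 differed between KRM and CD11clo, 7 lower and 3 higher in KRM, where 41.8% of the 12399 genes tested did. Ptges is among the 7, with the limit given above. Between KRM and CD11chi 5 of 9 differed, 3 lower and 2 higher, against 5.12% of 12404 genes, and with the replicate block 2 did, against 89 of all genes in place of 635. Between CD11chi and CD11clo 1 of 10 differed, against 1.52% of 12105 genes, and with the block 3 did, against 595 of all genes in place of 184. The median log2 fold change of the members was -2.35 for KRM over CD11clo (-0.04 over all genes), -0.83 for KRM over CD11chi (-0.07) and -0.55 for CD11chi over CD11clo (0.13). The 3 comparisons share libraries.

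**Figure D2:**
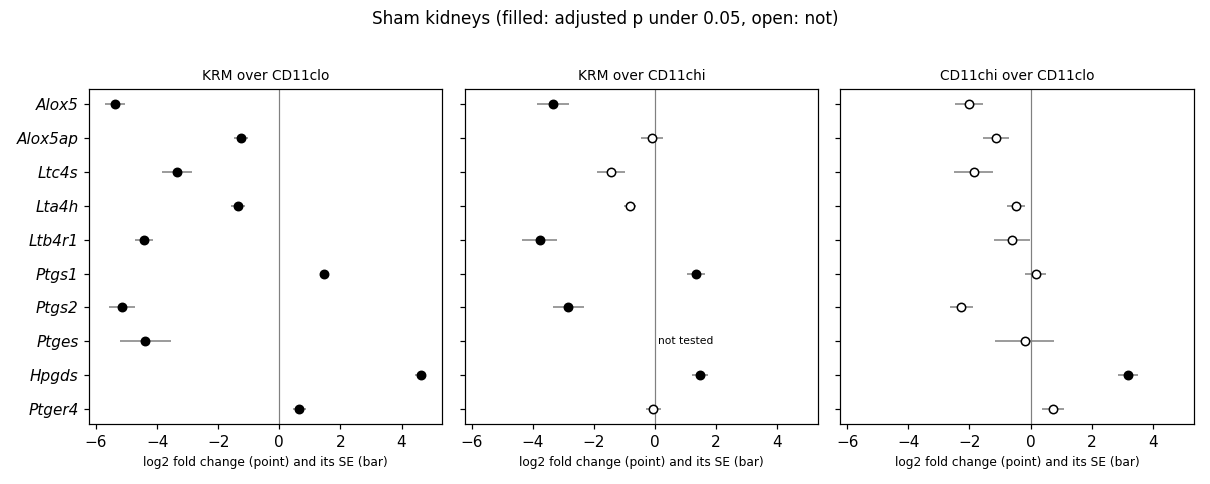
Log2 fold changes of the 10 genes between the 3 populations in Sham kidneys, with the standard error of each as a bar, from edgeR's quasi-likelihood fit. Filled points have an adjusted p under 0.05. Hpgds lies furthest right and Alox5 furthest left in the panel of KRM over CD11clo, at 4.62 and -5.37.

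Per kilobase of exon, which allows genes to be compared, Alox5ap was the highest of the 10 in all 3 Sham groups, at 353 ± 101 CPM per kilobase in CD11clo, 157 ± 76.0 in CD11chi and 150.0 ± 28.5 in KRM (SD). Next came Ltb4r1, Ptgs2 and Alox5 in CD11clo, at 68.1 ± 20.8, 56.2 ± 16.5 and 47.5 ± 5.72, which did not differ beyond their spread. In KRM the next were Ptgs1, Ptger4 and Hpgds, at 36.3 ± 1.16, 24.8 ± 1.41 and 23.6 ± 3.29. The cyclooxygenases thus stood in opposite order: Ptgs2 was at 56.2 ± 16.5 and Ptgs1 at 12.8 ± 1.03 CPM per kilobase in CD11clo Sham, and at 1.63 ± 0.931 and 36.3 ± 1.16 in KRM Sham.

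In RAS kidneys the low leukotriene genes of KRM were again low. Alox5 was at 212, 187, 129 and 192 CPM in CD11clo RAS, 41.4, 15.7, 14.2 and 13.2 in CD11chi RAS and 7.07, 10.1 and 9.16 in KRM RAS, again with no overlap between groups. The log2 fold change was -4.31 ± 0.27 for KRM over CD11clo (adjusted p = 0.00573), -3.09 ± 0.40 for CD11chi over CD11clo (adjusted p = 0.0045) and -1.20 ± 0.46 for KRM over CD11chi (adjusted p = 0.128). Ltb4r1 was at 63.4, 90.8, 201 and 191 CPM in CD11chi RAS, 91.5, 74.5, 37.1 and 68.2 in CD11clo RAS and 5.79, 4.51 and 3.48 in KRM RAS. KRM lay below both, with log2 fold changes of -4.83 ± 0.51 against CD11chi (adjusted p = 0.00655) and -3.84 ± 0.38 against CD11clo (adjusted p = 0.0089). Over CD11clo, CD11chi and KRM RAS, the neutrophil markers summed to 1605 to 2518, 6.68 to 245 and 0.732 to 12.1 CPM. The monocyte markers summed to 2819.5 to 6721, 629 to 1793 and 564 to 989. Dendritic cell markers were at 86.0 to 378, 989 to 5102 and 110 to 168, and B and plasma cell markers at 33.2 to 93.0, 80.5 to 570 and 73.4 to 409. The part of these cells in the differences was not tested.

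The other leukotriene genes separated the RAS populations in part. Alox5ap was at 125, 83.6 and 76.7 CPM in KRM RAS, below every library of CD11chi RAS (231, 347, 422 and 369) and CD11clo RAS (439, 508, 255 and 300.1). The log2 fold change of KRM was -1.80 ± 0.30 (adjusted p = 0.0232) and -1.95 ± 0.32 (adjusted p = 0.0239), respectively. Ltc4s was at 21.1, 40.0, 19.2 and 18.4 CPM in CD11clo RAS, above CD11chi RAS (6.28, 3.17, 1.06 and 0.364) and KRM RAS (1.67, 3.73 and 3.57), which overlapped. It was lower than in CD11clo in CD11chi (-3.16 ± 0.70 on the log2 scale, adjusted p = 0.0266) and in KRM (-2.99 ± 0.46, adjusted p = 0.0195). Lta4h was at 119, 147, 339.6 and 304 CPM in CD11chi RAS, 150.1, 134, 65.8 and 100.2 in CD11clo RAS and 63.2, 52.6 and 56.9 in KRM RAS. KRM lay below CD11chi (log2 fold change -1.92 ± 0.40, adjusted p = 0.0347), and CD11chi RAS 3 and 4 were above all other libraries.

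Of the prostaglandin genes, Ptgs1 and Ptges passed the test between RAS populations, both higher in KRM than in CD11chi. Ptgs1 was at 162, 139 and 139 CPM in KRM RAS and 76.4, 17.9, 31.7 and 22.3 in CD11chi RAS, without overlap (log2 fold change 2.05 ± 0.47, adjusted p = 0.0402). Ptges was at 0, 116 and 91.4 CPM in KRM RAS and 0.562, 0.793, 1.54 and 1.70 in CD11chi RAS (log2 fold change 5.98 ± 1.53, adjusted p = 0.0484). KRM RAS 1 lay below all CD11chi libraries, and KRM RAS 2 and 3 above all. In CD11clo RAS the level of Ptges was 1.96, 2.86, 1.81 and 4.38 CPM. Hpgds was at 155, 72.3 and 86.4 CPM in KRM RAS, 61.8, 23.9, 7.21 and 8.14 in CD11chi RAS and 16.2, 9.54, 167 and 34.6 in CD11clo RAS, where library 3 stood with KRM. It passed the test of KRM over CD11clo without CD11clo RAS 3 (log2 fold change 2.43, adjusted p = 0.0342), and did not with it (0.95 ± 0.89, adjusted p = 0.485).

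In RAS kidneys 5 of 10 members differed between KRM and CD11chi, 3 lower and 2 higher, against 9.23% of 13226 genes. Between KRM and CD11clo 4 of 10 differed, all lower in KRM, against 9.17% of 13179 genes, and without KRM RAS 1 and CD11clo RAS 3 together 8 did, with Hpgds, Ptger4 and Ptges higher and the other 5 lower in KRM, where 4339 of all genes differed in place of 1208. Between CD11chi and CD11clo 2 of 10 differed, both lower in CD11chi, against 8.27% of 12305 genes. With the closest library pairs summed to 1 sample each, these counts were 0, 0 and 1, the last being Alox5, and 0, 0 and 279 of all genes passed. Leaving out KRM RAS 2 or 3 also took every call of KRM away (adjusted p between 0.0534 and 0.164). Leaving out CD11chi RAS 2, 3 or 4 took 4 of the 5 calls against CD11chi, all but Ltb4r1 (adjusted p between 0.0506 and 0.131), and leaving out CD11clo RAS 2 or 4 took those of Alox5ap and Ltc4s against CD11clo (adjusted p between 0.0552 and 0.0673). Without CD11chi RAS 1 the call of Ptges against CD11chi was lost (adjusted p = 0.0692) and Hpgds passed (adjusted p = 0.0163), and between CD11chi and CD11clo Lta4h, Ltb4r1 and Ptgs1 passed (adjusted p between 0.0229 and 0.0443). The call of Ltc4s between CD11chi and CD11clo was lost without CD11chi RAS 2 or 3 or CD11clo RAS 2 or 4 (adjusted p between 0.0629 and 0.0789). Ptges passed between KRM and CD11clo without KRM RAS 1 (adjusted p = 0.00328, against 0.0763 with it), and Lta4h without CD11clo RAS 3 (adjusted p = 0.0168, against 0.0762 with it).

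**Figure D3:**
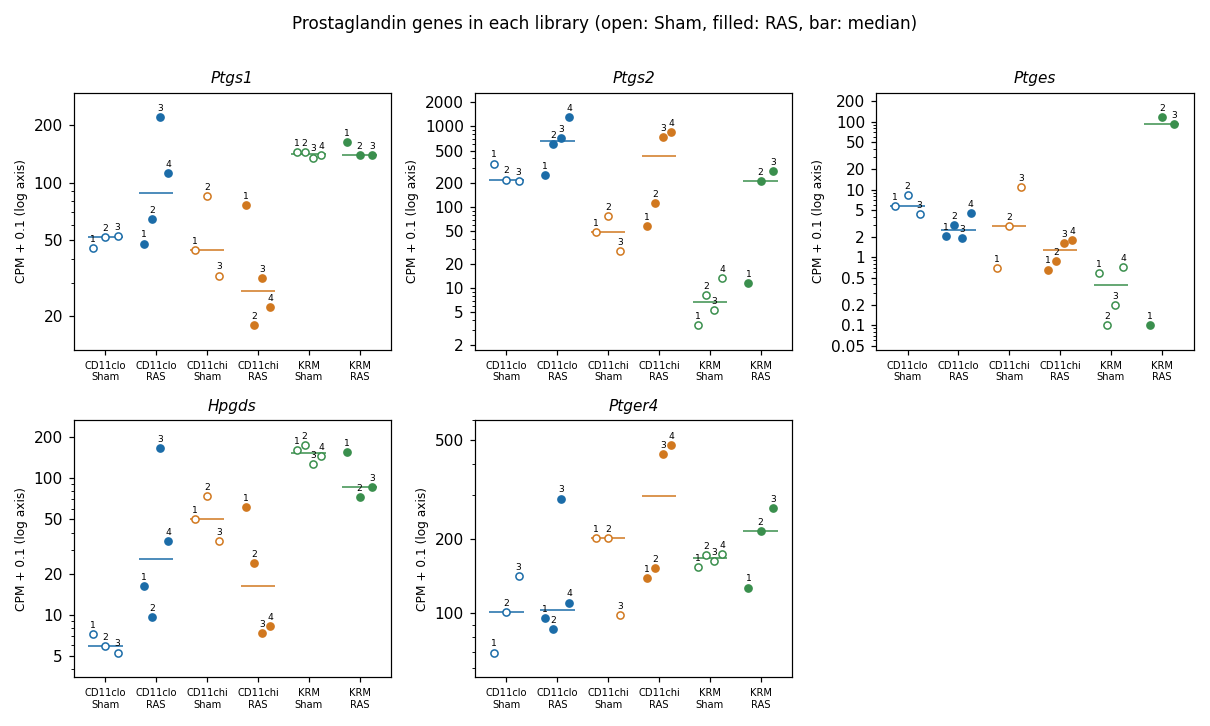
CPM of the 5 prostaglandin genes in each of the 21 libraries, on a log axis after adding 0.1, by population and kidney. Each point is a library labelled with its replicate number, open for Sham and filled for RAS, and the bar is the group median. Ptges lies at 116 and 91.4 CPM in KRM RAS 2 and 3 and at 0 in KRM RAS 1.

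RAS against Sham within a population asks how each macrophage population responded to a narrowed artery. In KRM 2 of 9 members passed the test, Ptgs2, which rose, and Alox5ap, which fell, against 9.7% of 12852 genes. Ptgs2 was at 3.37, 8.04, 5.28 and 13.2 CPM in KRM Sham and 11.5, 212 and 279 in KRM RAS. KRM RAS 1 lay within the Sham range, and KRM RAS 2 and 3 were above it. The log2 fold change was 4.62 ± 0.96 (adjusted p = 0.0325), and without KRM RAS 1 it was 5.13 (adjusted p = 8.59e-05). Alox5ap was at 270.5, 204, 176 and 202 CPM in KRM Sham and 125, 83.6 and 76.7 in KRM RAS, without overlap, and its log2 fold change was -1.06 ± 0.22 (adjusted p = 0.031, and 0.000803 without KRM RAS 1). Both calls were lost on leaving out KRM RAS 2 or 3 or KRM Sham 1, 2 or 4 (adjusted p between 0.0858 and 0.112), and that of Ptgs2 also without KRM Sham 3 (adjusted p = 0.0501). With KRM RAS 2 and 3 summed neither passed (adjusted p = 0.104 for each), and in 1 fit over the 6 groups Alox5ap did not (adjusted p = 0.0511). The 9 macrophage markers also summed to less in KRM RAS, at 7199, 3953 and 5029 CPM, than in KRM Sham, at 7889 to 8775 CPM, and the part of this in the levels of Alox5ap and Hpgds was not tested.

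Ptges was not tested in this comparison, since too few KRM libraries held enough counts. Its counts were 4, 0, 2 and 6 in KRM Sham and 0, 1335 and 998 in KRM RAS. Tested without the filter, its log2 fold change was 8.0 ± 1.66 (adjusted p = 0.0294). Without KRM RAS 1 it passed the filter only through KRM RAS 2 and 3, the libraries where it was high, so its difference there is a description. Without KRM RAS 1, Hpgds fell (log2 fold change -0.86, adjusted p = 0.00303) and Ptger4 rose (0.61, adjusted p = 0.00493). The members under the threshold were then 5, a count that includes Ptges as a description, and 7070 of all genes passed in place of 1247. The RAS group then consists of KRM RAS 2 and 3 alone, the pair of libraries that were so close to each other, so the standard errors and p-values at this setting may rest on less than 2 independent samples. With all libraries neither passed: Hpgds had a log2 fold change of -0.44 ± 0.26 (adjusted p = 0.258) and Ptger4 one of 0.41 ± 0.24 (adjusted p = 0.259), with 153, 172, 162 and 173 CPM in KRM Sham and 127, 214 and 264 in KRM RAS.

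The promoters of Ptgs2 (chr1:150099781-150100080, plus strand) and Ptges (chr2:30903248-30903547, minus strand), the genes that were high in KRM RAS 2 and 3 and low in KRM RAS 1, are shown as above. The RefSeq start of Ptges lies inside the longer gene model given above. In Ptgs2 the capitals mark a GC box, a half-site of the cyclic AMP response element on the reverse strand that begins 13 bases after the start site, and an E-box that overlaps with it. In Ptges they mark 2 GC boxes. Neither holds a TATA box, AP-1 site or CCAAT box by these spellings, and Ptges holds no half-site or E-box.
Ptgs2: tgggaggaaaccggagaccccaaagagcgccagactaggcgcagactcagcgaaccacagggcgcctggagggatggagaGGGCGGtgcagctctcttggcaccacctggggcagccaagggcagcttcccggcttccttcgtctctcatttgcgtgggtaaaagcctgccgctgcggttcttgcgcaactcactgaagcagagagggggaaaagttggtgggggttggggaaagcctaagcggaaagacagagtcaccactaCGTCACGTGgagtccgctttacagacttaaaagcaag
Ptges: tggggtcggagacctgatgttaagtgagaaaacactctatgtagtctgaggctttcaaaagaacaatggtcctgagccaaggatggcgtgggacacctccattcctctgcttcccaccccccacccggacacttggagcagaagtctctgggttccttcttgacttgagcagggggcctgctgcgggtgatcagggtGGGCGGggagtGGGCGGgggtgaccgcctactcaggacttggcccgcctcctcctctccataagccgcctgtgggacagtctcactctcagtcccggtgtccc

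Markers of other kidney cells were high in the same libraries. In KRM RAS 2 and 3 the 6 fibroblast and pericyte markers summed to 370.3 and 401 CPM, against 13.5 to 29.2 in KRM Sham and 25.1 in KRM RAS 1. The 6 endothelial markers summed to 168 and 144 CPM, against 9.63 to 19.7 in KRM Sham. The tubule markers, as given above, were at 4724 and 3641 CPM, against 122 to 1126 in KRM Sham, and no marker of the 3 lists was at 0 in KRM RAS 2 or 3. The highest tubule sum of all, 7245 CPM, was in CD11chi Sham 3, where Ptges was at 10.8 and Ptgs2 at 28.7 CPM, and KRM Sham 3, with 1126, had 0.0997 CPM of Ptges. CD11clo RAS 2 had 317 CPM of the fibroblast and pericyte markers and 2.86 CPM of Ptges. The part of these cells in the levels of Ptges and Ptgs2 was not tested. The 10 immediate early and dissociation genes, among them Fos and Egr1, summed to between 20129 and 25103 CPM in KRM RAS and between 30575 and 47221 in KRM Sham, so they were lower in KRM RAS than in KRM Sham. The 8 mast cell and basophil markers, of cells known to hold Hpgds, summed to 83.4, 136 and 110 CPM in KRM RAS and 1.32 to 7.83 in KRM Sham. The T and NK cell markers, given above, were also higher in KRM RAS. The 6 B and plasma cell markers summed to 409, 73.7 and 73.4 CPM in KRM RAS and 411 to 516 in KRM Sham. The part of these cells was not tested.

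**Figure D4:**
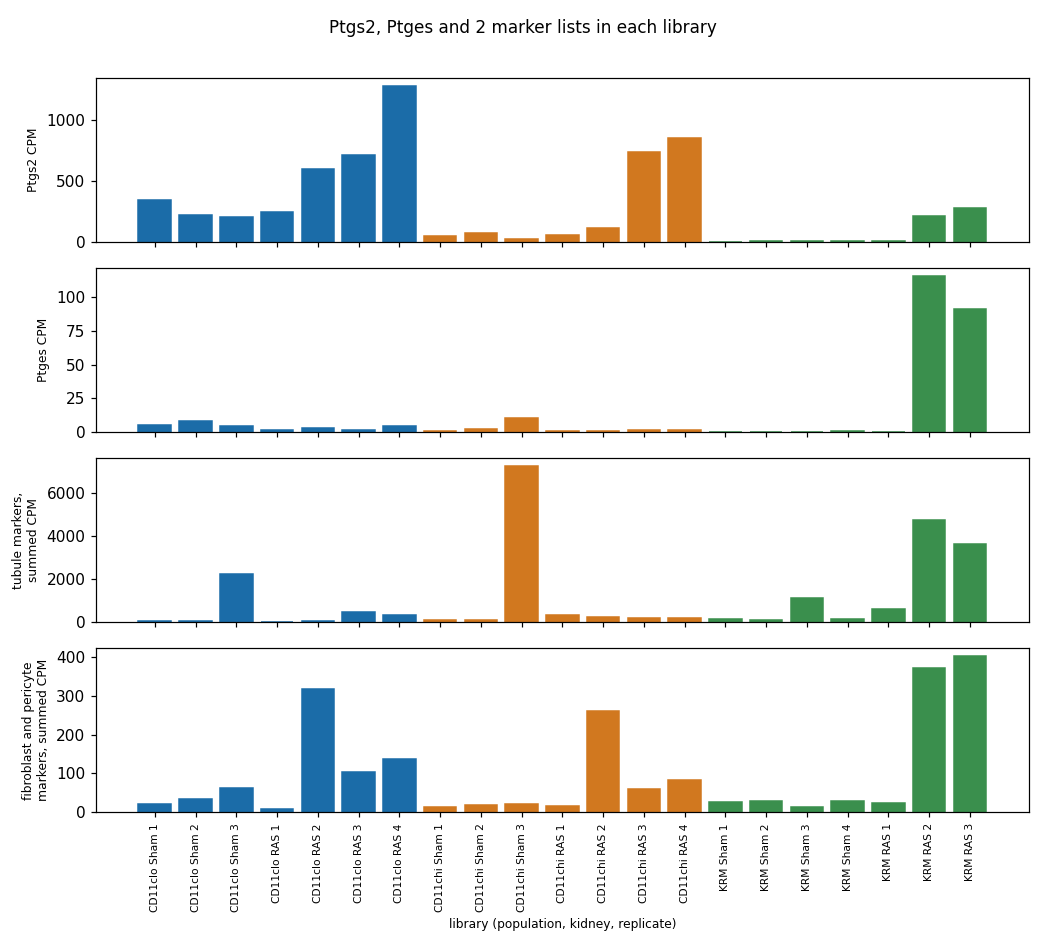
Ptgs2, Ptges and the summed levels of the tubule and the fibroblast and pericyte markers in each of the 21 libraries, in CPM on linear axes that start at 0, coloured by population. KRM RAS 2 and 3 are the libraries with the highest Ptges, 116 and 91.4 CPM, and with the highest fibroblast and pericyte sums, 370 and 401 CPM.

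In CD11chi macrophages no member passed the test of RAS against Sham, and 0% of 12739 genes did by edgeR, with 1247 genes at an unadjusted p under 0.05. By limma none passed, and by DESeq2 189 genes did, Ptgs2 among them (adjusted p = 0.0213). Ptgs2 was at 48.5, 77.8 and 28.7 CPM in Sham and 58.8, 113, 734 and 849 in RAS. Libraries 2, 3 and 4 of CD11chi RAS were above all Sham libraries, 3 and 4 by far, and library 1 lay within the Sham range (log2 fold change 2.99 ± 0.97, adjusted p = 0.508). The same pair had more Lta4h, Ltb4r1 and Ptger4 and less Hpgds and Ltc4s than CD11chi RAS 1 and 2. Ptger4 was at 139, 153, 439.7 and 477 CPM, Hpgds at 61.8, 23.9, 7.21 and 8.14 and Ltc4s at 6.28, 3.17, 1.06 and 0.364. Lta4h, with 119, 147, 339.6 and 304 CPM in RAS and 114, 79.7 and 65.1 in Sham, was the one member whose groups did not overlap (log2 fold change 1.31 ± 0.43, adjusted p = 0.508). The 7 dendritic cell markers summed to 4795 and 5102 CPM in CD11chi RAS 3 and 4, 989 and 1963 in CD11chi RAS 1 and 2 and 346 to 1742 in CD11chi Sham. The T and NK cell markers summed to 113 to 251 CPM in CD11chi RAS and 4.99 to 33.4 in CD11chi Sham. Their part in these levels was not tested.

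In CD11clo macrophages no member passed either, and 0% of 12301 genes did by edgeR, with 1102 genes at an unadjusted p under 0.05. By limma none passed, and by DESeq2 107 genes did, Hpgds among them (adjusted p = 0.0162). Hpgds was at 7.13, 5.80 and 5.20 CPM in Sham and 16.2, 9.54, 167 and 34.6 in RAS. Every RAS library lay above every Sham library, with library 3 furthest (log2 fold change 3.22 ± 1.01, adjusted p = 0.553, and 1.74 without that library). Ptgs2 was at 345, 218 and 209.6 CPM in Sham and 246, 596, 715 and 1279.8 in RAS, where library 1 lay within the Sham range (log2 fold change 1.45 ± 0.50, adjusted p = 0.553). CD11clo RAS 3 also had the highest Ptgs1 of the 21 libraries, with 48.0, 64.2, 219 and 112 CPM over the RAS libraries and 45.3, 51.8 and 52.6 over the Sham libraries. It had the highest platelet marker sum as well, 308 CPM over 7 genes against 92.6 to 160 in the other CD11clo libraries, and the highest macrophage marker sum, 9179 CPM. The part of either in its levels of Hpgds and Ptgs1 was not tested. No leukotriene gene passed, and their log2 fold changes ran from -0.49 ± 0.32 for Ltb4r1 to -0.13 ± 0.19 for Alox5.

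**Figure D5:**
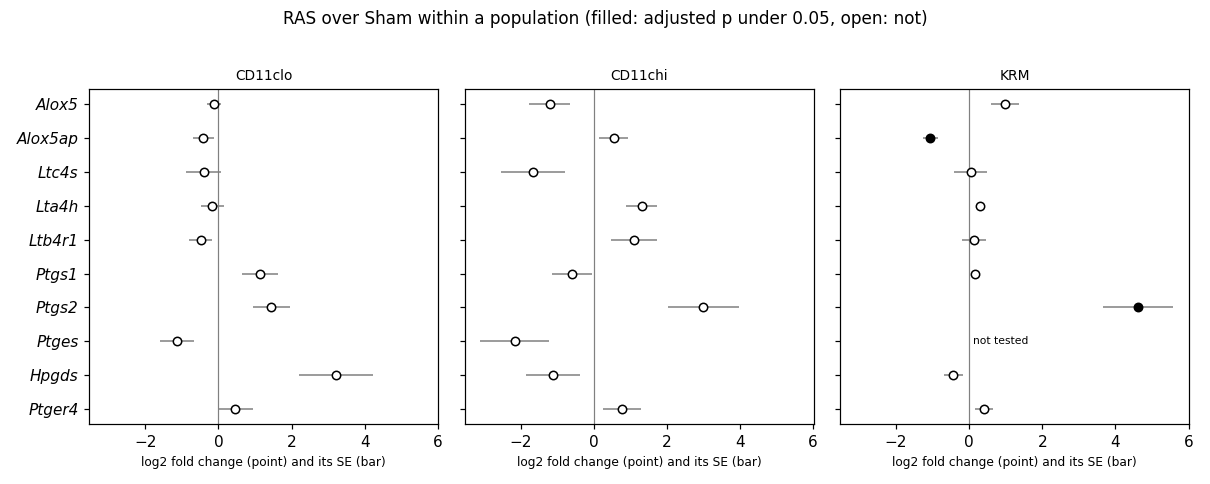
Log2 fold changes of RAS over Sham for the 10 genes within each population, with the standard error of each as a bar, from edgeR's quasi-likelihood fit. Filled points have an adjusted p under 0.05, and Ptges was not tested in KRM. The filled points are those of Ptgs2 and Alox5ap in KRM, at 4.62 and -1.06.

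The difference between the responses of 2 populations was tested as an interaction. No member passed for KRM minus CD11chi, where 0% of 14137 genes did by edgeR (2999 at an unadjusted p under 0.05), for KRM minus CD11clo, where 0.245% of 13877 did, or for CD11chi minus CD11clo, where 0% of 13540 did (900 at an unadjusted p under 0.05). By DESeq2 the counts of members were 2, 2 and 0, and of all genes 1221, 1419 and 15. By limma, without KRM RAS 1, they were 1, 3 and 0 members and 1094, 3932 and 0 genes. Ptges came closest, with a difference in log2 fold change of 9.12 ± 1.84 for KRM minus CD11clo (adjusted p = 0.0564) and 10.08 ± 2.13 for KRM minus CD11chi (adjusted p = 0.098). Without KRM RAS 1 both passed (adjusted p = 0.000123 and 0.0038). So did Ptgs2 and Hpgds against CD11clo (adjusted p = 0.00877 and 0.0366, against 0.127 and 0.0929 with KRM RAS 1) and Alox5ap against CD11chi (adjusted p = 0.0465, against 0.105). At this setting 2357 of all genes passed for KRM minus CD11clo, in place of 34, and 1097 for KRM minus CD11chi, in place of 0. The KRM RAS group is then again the close pair of libraries 2 and 3, with the same limit on the p-values. The changes of Ptgs2 in KRM and in CD11chi were not distinguished, with a difference of 1.56 ± 1.35 on the log2 scale (adjusted p = 0.557).

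A wider list of 47 genes of the pathway was read beside the members, of which 42 passed the filter over the 21 libraries. In Sham kidneys 20 of 35 tested differed between KRM and CD11clo, 13 lower and 7 higher in KRM, against 41.8% of all genes tested. Between KRM and CD11chi 4 of 35 differed, all lower in KRM, against 5.12%. Between CD11chi and CD11clo none of 34 did by edgeR. Alox15, the 12/15-lipoxygenase, was at 701, 973 and 337 CPM in CD11clo Sham, 56.6, 108 and 111 in CD11chi Sham and 0.963, 0.952, 2.34 and 1.88 in KRM Sham (log2 fold change of KRM -8.70 ± 0.51 and -5.90 ± 0.45, adjusted p = 8.58e-06 and 0.00249). It is also a marker of serous cavity macrophages. The 8 markers of that list, Alox15 itself among them, summed to 1275 to 1393 CPM in CD11clo Sham and 20.5 to 25.7 in KRM Sham. Ptgir, the prostacyclin receptor, and Ptger2, the EP2 receptor, were also lower in KRM than in both, with log2 fold changes of -5.61 ± 0.25 and -4.61 ± 0.61 against CD11clo (adjusted p = 3.10e-06 and 5.80e-04). Against CD11chi they passed as well, at -4.07 ± 0.53 and -3.73 ± 0.60 (adjusted p = 0.0089 and 0.0181), but not with the replicate block (adjusted p = 0.0719 and 0.15) or by limma. The call of Ptger2 was also lost on leaving out CD11chi Sham 1 or any 1 of the KRM Sham libraries (adjusted p up to 0.0807), and the count of 4 fell to 2 without CD11chi Sham 1 or KRM Sham 1, 2 or 4. The genes that were higher in KRM than in CD11clo included Cysltr1, a receptor of the cysteinyl leukotrienes, at 1.67 ± 0.18 (adjusted p = 1.93e-04), and Hpgd, the dehydrogenase that inactivates prostaglandins, at 1.78 ± 0.16 (adjusted p = 8.35e-05). Over these genes the median log2 fold change of KRM over CD11clo was -0.34.

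In RAS against Sham 10 of 36 of the wider list passed in KRM, 8 higher and 2 lower in RAS, against 9.7% of all genes tested, none of 36 in CD11chi and none of 35 in CD11clo, by edgeR. The count in KRM was 0 with KRM RAS 2 and 3 summed, and 0 on leaving out KRM RAS 2 or 3 or KRM Sham 1, 2 or 4. It was 28 without KRM RAS 1, where 7070 of all genes passed. Ptgfr, the prostaglandin F receptor, was at 0, 0.106, 0.399 and 0 CPM in KRM Sham and 1.08, 19.0 and 11.9 in KRM RAS (log2 fold change 6.04 ± 1.19, adjusted p = 0.0295). Slco2a1, the prostaglandin transporter, was at 0, 0.106, 0.698 and 0.105 and 1.08, 23.0 and 22.8 CPM (log2 fold change 5.85 ± 1.21, adjusted p = 0.0321). Both passed the filter on low counts only through the KRM RAS libraries, where they were high, so their differences are descriptions. They are among the 10 counted, and their folds rest on few Sham counts. Both were highest in KRM RAS 2 and 3, as was Ptges, and CD11chi Sham 3 had 10.7 CPM of Ptgfr and 8.66 of Slco2a1, and CD11clo RAS 4 had 10.5 of Slco2a1. The genes that fell were Dpep2, a dipeptidase of leukotriene D4, from 147, 133, 122 and 108 to 79.2, 29.2 and 34.5 CPM (log2 fold change -1.33 ± 0.34, adjusted p = 0.049), and Cyp4f18, which oxidises leukotriene B4 (log2 fold change -1.07 ± 0.23, adjusted p = 0.0358). On leaving out 1 library the adjusted p rose to at most 0.102 for Ptgfr, 0.112 for Slco2a1, 0.173 for Dpep2 and 0.131 for Cyp4f18, and Dpep2 was lost also without KRM Sham 3. In the RAS populations 8 of 39 passed between KRM and CD11chi (9.23% of all genes), 7 of 39 between KRM and CD11clo (9.17%) and 4 of 36 between CD11chi and CD11clo (8.27%). With the closest pairs summed each of these counts was 0, where 0, 0 and 279 of all genes passed. Both counts of KRM were also 0 without KRM RAS 2 or 3, that against CD11chi 0 or 1 without CD11chi RAS 2, 3 or 4, that against CD11clo 0 without CD11clo RAS 2 or 4, and that of CD11chi against CD11clo 0 without CD11chi RAS 3 or 4 and 1 or 2 without CD11clo RAS 1, 2 or 4.

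For Ptgs2, Alox5 and Ltb4r1, the members whose group means differed most, the genes with the most similar profile over the 21 libraries were found by the root mean square difference of centred log2 CPM among 14504 genes. Nearest to Ptgs2 were Fosl2 (0.72), Nr4a2 (0.76) and Il6 (0.79), the first 2 being transcription factors and the last the cytokine interleukin 6. Nearest to Alox5 were Sirpb1c (0.54), Pygl (0.62) and Ceacam1 (0.68), and nearest to Ltb4r1 were Gm15987 (0.49), Tiam1 (0.55) and Slc2a6 (0.60). The members' own spread by the same measure was 2.52 for Ptgs2, 2.12 for Alox5 and 2.06 for Ltb4r1. The libraries share their groups, so these are descriptions over 21 points in 6 groups.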

How the data were processed

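RNA of sorted cells was made into libraries with the SMART-Seq v4 Ultra Low Input and Nextera XT kits. The authors aligned reads to mm10 with OSA, counted genes by an Ensembl model, and deposited estimated counts per gene (rounded here) and a second table scaled to TPM, quantile normalized and, by its values, on a log2 scale. DESeq2 is named in the submitters' processing notes.

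Counts of lines sharing a symbol were summed (37620 lines, 34236 names). Genes were filtered (filterByExpr, minimum count 10, minimum total 15), scaled by TMM and tested two-sided with edgeR's quasi-likelihood test over the libraries of the groups compared, with Benjamini-Hochberg adjustment over all genes tested and a threshold of 0.05. The tests were checked on simulated counts of independent libraries with a fixed dispersion. That does not show how they behave with the spread between these libraries. Members, gene lists and comparisons were chosen with earlier results of these data known. All 10 members are named. Genes of the wider list could be named at an adjusted p under 0.05 and an absolute log2 fold change above 1, at most the 6 of smallest adjusted p per direction and comparison, and for the 4 members whose group means of log2 CPM varied most, the 3 genes of most similar profile were to be named, of which the result for 1 member, Ptges, is not reported here. Genes of marker lists were named as examples. Replicate numbers appeared to pair Sham libraries: deviations from the group means correlated at 0.201 to 0.647 for every pair between populations, and not all pairs of other comparisons passed 0.1. Between CD11chi and CD11clo 1 of 3 Sham libraries correlated best with its own number, and 3 of 3 did in each comparison with KRM. The Sham libraries numbered 3 share high tubule marker sums, so a pairing cannot be told apart from that shared shift. Versions were R 4.3.3, edgeR 4.0.16, limma 3.58.1 and DESeq2 1.42.0.

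Alternatives were median-of-ratios scaling, no filter, 1 fit over 6 groups, a replicate block, DESeq2, limma on the log2 table without KRM RAS 1, leaving out libraries, and, chosen after seeing the data, summing the closest pairs and leaving out the libraries that stood apart. Positions are from GENCODE on GRCm38, promoters from RefSeq, where 9 of the 10 members matched.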

Additional observations from a re-analysis of the deposited data

Results flagged for a closer look

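In 30 groups of 4 libraries, 1 for each member and group of that size, Dixon's ratio found 4 values far from the others, in 3 libraries, and chance gives about 1 in 20 groups. CD11chi RAS 1 had 41.4 CPM of Alox5, against 15.7 in the next library. CD11clo RAS 2 had 40.0 CPM of Ltc4s, against 21.1. CD11clo RAS 3 had 167 CPM of Hpgds, against 34.6, and 289.9 CPM of Ptger4, against 110.3. CD11clo RAS 3 also had 906 CPM of Cx3cr1 against 239.6 to 481 in the other CD11clo libraries. Groups of 3 libraries were not examined in this way, so KRM RAS 1 could not be found by it.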

How the results depend on the processing

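Of the 29 member calls, 10 held at every setting and none changed direction in 413 recomputed values. The 10 were 9 in KRM against CD11clo in Sham, all but Ptger4, and Alox5 in CD11chi against CD11clo in RAS. Ptges, among the 9, passed the filter there only through the CD11clo libraries, so its call is a description. The cause of the changes was not tested. Members called, in place of 5 in KRM against CD11chi in Sham, were 2 in the fit over 6 groups, where 636 of all genes were called in place of 635, and 2 with the replicate block. In place of 1 in CD11chi against CD11clo in Sham they were 2 in the fit over 6 groups, 3 with the block, 4 by DESeq2 and 5 without the Sham libraries numbered 3. In RAS, in place of 5 in KRM against CD11chi, they were 1 with the block and 0 with the closest pairs summed. In place of 4 in KRM against CD11clo they were 0 with the pairs summed and 8 without the libraries that stood apart, and in place of 2 in CD11chi against CD11clo they were 4 in the fit over 6 groups and 1 with the pairs summed. For RAS against Sham DESeq2 called 1 in CD11chi and 1 in CD11clo, in place of 0. In KRM, in place of 2, the block gave 0, limma 5, leaving out the Sham library numbered 3 gave 1, and summing the pairs 0. For the response of KRM minus CD11chi, in place of 0, the fit over 6 groups gave 1, DESeq2 2, limma 1 and leaving out the libraries that stood apart 2. For KRM minus CD11clo, in place of 0, no filter gave 1, the fit over 6 groups 1, DESeq2 2, limma 3 and leaving out those libraries 3. Leaving out 1 library gave 0 to 6 calls in KRM against CD11chi and 9 to 10 in KRM against CD11clo in Sham, 0 to 3 in CD11chi against CD11clo in Sham, and 0 to 5, 0 to 6 and 1 to 5 for the same comparisons in RAS. It gave 0 to 5 for RAS against Sham in KRM, 0 to 2 for KRM minus CD11chi and 0 to 3 for KRM minus CD11clo. The 5 for RAS against Sham include Ptges, which is a description at that setting.

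The replicate numbers appeared to pair the Sham populations only, and the block lost or gained no other Sham call of a member than those given with the results. Genes called by DESeq2, in place of edgeR's count, were 1810 in place of 635 for KRM against CD11chi and 1213 in place of 184 for CD11chi against CD11clo in Sham. In RAS they were 2748 in place of 1221, 3217 in place of 1208 and 2052 in place of 1018, and 3166 in place of 1247 for RAS against Sham in KRM. With the closest pairs summed, the counts were 0, 0, 279 and 27 for the last 4 comparisons. The fit over 6 groups gave 3447 in place of 5178 for KRM against CD11clo in Sham, 818 in place of 184, and 2138, 1840 and 1729 in RAS. The block gave 101 in KRM against CD11chi in RAS and 42 in RAS against Sham in KRM. No filter gave 395 and 95 in Sham for KRM and CD11clo, each against CD11chi, and limma 389 and 103 there, 2284 and 3498 for KRM in RAS and 7354 for RAS against Sham in KRM. Leaving out 1 library gave 155 to 1717 for KRM against CD11chi, 4007 to 5940 for KRM against CD11clo and 0 to 704 for CD11chi against CD11clo in Sham, 14 to 2788, 0 to 3239 and 256 to 2169 for the same in RAS, and 28 to 7070 for RAS against Sham in KRM. For KRM minus CD11clo, in place of 34, the counts ran from 0 without the Sham libraries numbered 3 to 3932 by limma, with 2397 without the libraries that stood apart. Without those, KRM minus CD11chi had 421 in place of 0 and KRM against CD11clo in RAS 4339. Without the Sham libraries numbered 3, CD11chi differed from KRM in 1493 genes and from CD11clo in 1897 in Sham. KRM Sham held at most 6 counts of Ptges per library, so its fold there is set by few counts.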
